A study of Mus musculus with 16 samples.

Results

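Predicted genes with a transient peak at the early 2-cell stage were examined in a course of mouse preimplantation development in which oocytes and embryos came from superovulated or from naturally cycling females. Predicted genes are those that the annotation carries under a provisional symbol, either Gm with a number or a symbol ending in Rik, and not under a descriptive name. Members were chosen by the deposited signals: a row of the array table (1 transcript cluster of the array) was taken when it had 1 such symbol and when, in both hormone backgrounds, its early 2-cell signal was at least 3 log2 units above the 1-cell signal and at least 2 log2 units above the 8-cell signal. Since the members were selected on these values, every difference that involves an early 2-cell, 1-cell or 8-cell array is a description without a test. The rule found 113 rows of 109 genes among 9781 predicted rows (1.16%) and 30638 rows with 1 symbol of any kind. Gm7969 was represented by 3 rows, and Gm12620 and Gm2016 by 2 each.

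The samples were metaphase II (MII) oocytes, 1-cell embryos, 2-cell embryos taken early and late, embryos of 4 and 8 cells, morulae and blastocysts, with 1 array per stage and background and 16 arrays in all. Females were B6C3F1 hybrids, which were either given 10 IU PMSG followed 48 h later by 10 IU hCG, or received no ovarian stimulation. Embryos arose by mating with CD1 males and were cultured with their zona pellucida in pools in KSOM(aa) medium, whereas oocytes were lysed directly, after mating with vasectomized males in the natural cycle and without mating after superovulation. Labels gave day 1 for both 2-cell stages, day 2 for the 4-cell stage, day 3 for 8-cell embryos and morulae, and day 4 for blastocysts. Lysates of 4 collection runs with superovulation (3096 oocytes and embryos) and 9 without (989) were pooled by stage, and each array received the equivalent of 20 oocytes or embryos. An array therefore averaged over many embryos, so that fewer expressing cells and less RNA per expressing cell cannot be told apart. No stage had a replicate within a background, and p-values rest on how far the backgrounds departed from a common course over the stages.

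At the late 1-cell and 2-cell stages the mouse embryo begins to transcribe its own genome while stored oocyte RNA is cleared, a step called zygotic genome activation. The first burst includes genes of large, young, tandemly repeated families that are silent in most adult tissues, for instance the Zscan4, Tdpoz, Pramel and Obox families, and many copies in such arrays are annotated only as predicted genes or pseudogenes. Oocyte markers were above the level of silent genes on all 16 arrays (6 of 6 genes, among them Gdf9 and Bmp15). Nanog of the epiblast lineage and Cdx2 of the trophectoderm were highest in blastocysts, at 17.00 and 12.00 after superovulation and 15.73 and 12.99 in the natural cycle. Throughout, signals are deposited log2 values. The silent level is the 95th percentile of 1085 rows of olfactory receptor genes, which lay between 4.72 and 5.22 depending on the array.

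Promoter sequences were in the RefSeq table (build GRCm38.p6) for 23 of the member genes, and the 250 bases before each annotated start were searched on both strands. TATAAA, the core of the TATA box at which RNA polymerase II transcription can be positioned, was found in 9 of the 23 (39.1%). It was in 12.31% of 32536 promoters of the same length, where identical sequences counted once, unlike among the 23. Matches began between -228 (Gm12569) and -28 (Gm16522) from the annotated start, and those of Gm5941 (-216) and Gm6803 (-163) were also far from it. GGATTA, a motif bound by homeodomain proteins of the Otx type, was found in 5 of 23 (21.7%) against 6.25% of all, and CCAAT in 9 of 23 (39.1%) against 33.81%. The Dux-type motif was in none of the 23 and in 0.03% of all promoters. A match is a description of these letters, not a site or a cause. The 23 are not independent, since several are copies of each other. TATAAA read on the other strand is TTTATA, so that both readings overlap in TTTATAAA.

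A group of promoters is shown because similar sequences on different chromosomes stood before genes with different courses after the early 2-cell stage. Gm11487, Gm11757 and Gm11756 lie within 1 locus on chromosome 4 (minus strand, chr4:73405073-73405322, chr4:73891081-73891330 and chr4:73920717-73920966), and B020004C17Rik is the only member on chromosome 14 (plus strand, chr14:57014884-57015133). Sequences run 5′ to 3′ and end at the base before the annotated start, and capitals mark GGATTA and TATAAA on either strand.
Gm11487: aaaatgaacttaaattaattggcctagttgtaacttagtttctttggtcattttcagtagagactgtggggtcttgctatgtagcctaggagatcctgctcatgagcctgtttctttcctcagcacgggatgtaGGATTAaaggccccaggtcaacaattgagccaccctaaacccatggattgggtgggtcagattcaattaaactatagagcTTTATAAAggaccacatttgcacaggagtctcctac
Gm11757: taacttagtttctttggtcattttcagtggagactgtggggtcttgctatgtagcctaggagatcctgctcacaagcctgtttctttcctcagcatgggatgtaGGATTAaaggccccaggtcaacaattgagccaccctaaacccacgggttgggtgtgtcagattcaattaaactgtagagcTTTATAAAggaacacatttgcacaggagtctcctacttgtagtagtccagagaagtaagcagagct
Gm11756: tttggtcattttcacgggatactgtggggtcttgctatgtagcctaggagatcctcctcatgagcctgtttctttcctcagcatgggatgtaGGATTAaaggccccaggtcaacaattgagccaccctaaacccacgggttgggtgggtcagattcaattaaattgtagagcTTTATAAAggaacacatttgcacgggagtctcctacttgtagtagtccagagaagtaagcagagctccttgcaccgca
B020004C17Rik: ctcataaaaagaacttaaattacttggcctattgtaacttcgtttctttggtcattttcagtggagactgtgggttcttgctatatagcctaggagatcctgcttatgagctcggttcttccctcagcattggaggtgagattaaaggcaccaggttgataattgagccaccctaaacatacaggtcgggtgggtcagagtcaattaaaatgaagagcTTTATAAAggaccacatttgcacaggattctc
The windows are offset where the annotated starts differ. Over the columns in which windows overlapped, the 3 promoters of chromosome 4 were identical at 94.2% to 96.2% of positions, and B020004C17Rik matched them at 85.6% to 87.0%. All 4 held TTTATAAA, whereas GGATTA was present in the 3 promoters of chromosome 4 only.

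Further promoters are shown for Gm6803, whose signal differed most between MII and the late 2-cell stage (minus strand, chr12:88019008-88019257), for the neighbours Gm11546 and Gm11543 (minus strand, chr11:94798212-94798461 and chr11:94829341-94829590), and for Gm6346 of the chromosome 5 locus (plus strand, chr5:93920035-93920284).
Gm6803: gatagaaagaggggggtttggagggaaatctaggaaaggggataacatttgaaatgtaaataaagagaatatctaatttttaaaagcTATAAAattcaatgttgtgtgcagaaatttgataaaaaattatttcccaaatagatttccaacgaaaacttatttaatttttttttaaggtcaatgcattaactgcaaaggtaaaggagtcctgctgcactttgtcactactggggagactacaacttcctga
Gm11546: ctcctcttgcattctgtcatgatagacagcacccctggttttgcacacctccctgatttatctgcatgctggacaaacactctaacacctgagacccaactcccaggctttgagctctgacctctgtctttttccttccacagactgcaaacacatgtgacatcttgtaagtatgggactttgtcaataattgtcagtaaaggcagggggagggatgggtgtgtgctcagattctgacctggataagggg
Gm11543: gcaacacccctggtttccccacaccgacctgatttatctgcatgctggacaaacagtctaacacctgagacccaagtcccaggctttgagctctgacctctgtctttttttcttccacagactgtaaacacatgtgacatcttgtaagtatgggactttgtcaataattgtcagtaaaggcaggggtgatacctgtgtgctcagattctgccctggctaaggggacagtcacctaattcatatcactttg
Gm6346: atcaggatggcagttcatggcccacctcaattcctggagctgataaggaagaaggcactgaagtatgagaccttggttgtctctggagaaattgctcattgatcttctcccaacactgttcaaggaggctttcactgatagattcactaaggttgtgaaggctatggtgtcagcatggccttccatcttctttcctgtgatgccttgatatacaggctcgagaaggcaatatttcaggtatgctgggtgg
Gm11546 and Gm11543 were 81.4% identical over their overlap and held neither capitalised motif. The 250 bases of Gm6346 were the same as those of Gm6348, another member of the same locus.

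The members were unevenly made up by gene type. RefSeq called 74 of the 113 rows (65.5%) pseudogenes, with or without transcription, against 39.8% of all predicted rows. Protein-coding genes made up 32 rows (28.3%) against 10.1%, and long noncoding RNAs 6 rows (5.3%) against 30.8%. For 30 rows the provisional symbol was an older name of a gene that RefSeq now names, and these were 25 pseudogenes of the homeobox gene Obox4, the PRAME-like genes Pramel28, Pramel39 and Pramel44 (Gm13101, Gm16522 and Gm6509) and Spopfm1 and Spopfm3 (Gm4778 and Gm5286), relatives of the ubiquitin ligase adaptor Spop.

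Members lay next to each other. When members with at most 15 other genes between them were joined, the 113 rows fell into 37 loci, and 16 loci with more than 1 member gene held 92 rows. The longest was on chromosome 7, from Gm20665 to Gm4023, and contained the 25 Obox4 pseudogenes. A locus on chromosome 12 (Gm21319 to Gm10264) held 11 rows, 1 on chromosome 2 (Gm13698 to Gm13691) held 7, and 1 on chromosome 5 (Gm6346 to Gm6348), among Pramel genes, held 6. Whether probes of a row also bind transcripts of another copy was not measured. The rows of 4 sets, 14 rows in all, differed by no more than 0.1 log2 on any array, among them Gm3994, Gm3996, Gm3998, Gm4001 and Gm4003 on chromosome 7. Counting each such set once, 103 distinct courses remained, and the members are thus not independent of each other.

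Named genes beside the loci were divided. Inside or directly beside them, Tmem92 (early 2-cell minus 1-cell 7.85 after superovulation and 7.31 in the natural cycle), AA623943 (7.22 and 7.92), AA414992 (10.56 and 11.25), Tcstv1 (4.04 and 3.78) and Tdpoz3 (10.74 and 10.96) met the same values as the members. Flanking genes outside such families did not, for instance Alkbh5 (-0.46 and -0.87) and Llgl1 (0.04 and -0.50) at the chromosome 11 locus Gm12623 to Gm12620. Beside the chromosome 2 locus, Zswim2 (1.89 and 1.48) and Calcrl (0.26 and -0.15) did not either. Family genes inside loci also failed in part, such as Pramel47 (-0.15 and -0.28) on chromosome 5 and Pramel51 (-0.50 and 0.05) on chromosome 12. Tdpoz4 on chromosome 3 rose by 7.68 and 8.22 but did not meet the values. The chromosome 7 locus was mixed too. There Obox1, Obox2 and Obox5, homeobox genes that were near 16 in MII oocytes already, moved by between -0.54 and 0.36. Obox3 rose by 3.17 and 3.90 and met the values.

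The course was a sharp peak followed by a stepwise decline in both backgrounds. The median over the members was 6.85 in MII oocytes and 6.95 at the 1-cell stage after superovulation, reached 13.77 at the early 2-cell stage, and read 10.71, 9.36, 7.46, 7.28 and 5.62 from the late 2-cell stage to the blastocyst. In the natural cycle the medians in the same order were 6.94, 7.39, 13.75, 10.68, 8.96, 7.13, 6.48 and 5.29. The median of all rows with 1 symbol lay between 4.94 and 5.10 on the 16 arrays, near the silent level. Before the peak the members were not all silent, as 94 and 91 of 113 were above the silent level in superovulated and natural MII oocytes, and 90 and 81 were still above it in blastocysts.

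**Figure D1:**
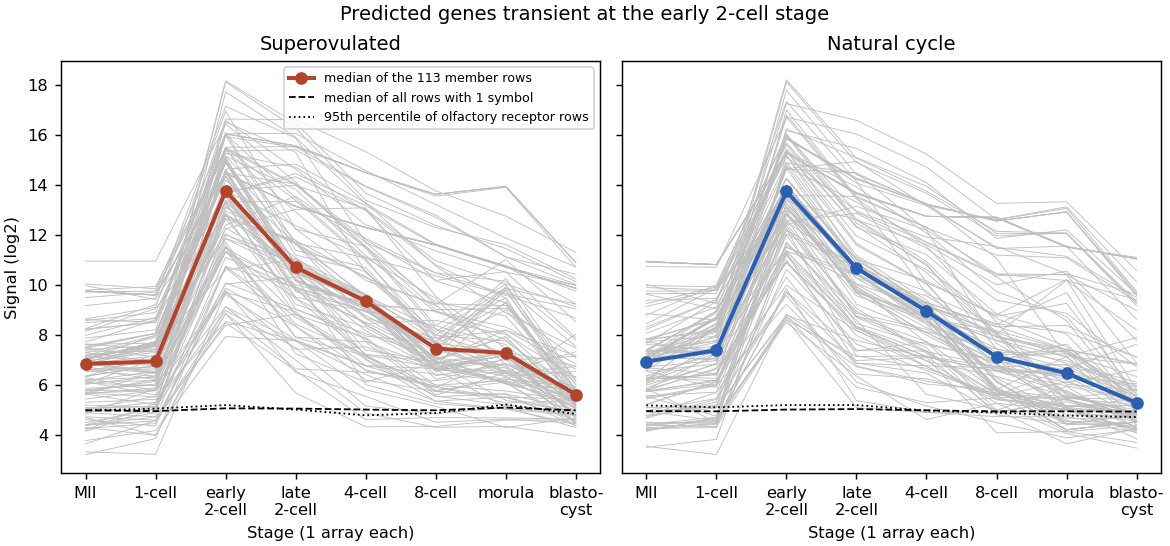
Signal (log2) of the 113 member rows (grey lines) at 8 stages with 1 array each, for superovulated (left) and natural-cycle (right) embryos. Coloured lines give the members' median, which rose from 6.95 and 7.39 at the 1-cell stage to 13.77 and 13.75 at the early 2-cell stage, dashed lines the median of all rows with 1 symbol, and dotted lines the silent level.

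Across the 113 rows early 2-cell minus 1-cell ranged from 3.04 to 11.17 after superovulation (median 6.43) and from 3.25 to 10.62 in the natural cycle (median 5.73), which describes the selection. The rule was also applied to 1 background and read in the other, which describes the arrays of the rule again and is no test. Of 115 predicted rows that met the rule in the superovulated arrays alone, 115 were higher at the early 2-cell than at the 1-cell stage in the natural cycle, and 113 (98.3%) met the full rule there. Of 135 rows that met it in the natural cycle alone, 134 were higher after superovulation and 113 (83.7%) met the rule. In both readings the 113 are the members themselves, and the share of all predicted rows that were higher was not counted. Just inside the thresholds were Gm4779 (rise of 3.04 after superovulation), Gm11839 (fall of 2.05 to the 8-cell stage), Gm5941 (rise of 3.11) and the dimmer row of Gm12620 (fall of 2.23 in the natural cycle). Just outside were Gm17230 (rise of 3.00), Gm20835 (fall of 2.00), Gm20736 (rise of 2.92 in the natural cycle) and 4930578G10Rik (fall of 1.88).

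The highest signals at the early 2-cell stage belonged to the chromosome 12 locus, although signals of different rows are not a measure of relative abundance. The brighter row of Gm2016 read 6.35 in MII, 7.22 at 1-cell, 18.17 at early 2-cell, 16.48 at late 2-cell, 13.68 at 4-cell, 12.38 at 8-cell, 11.46 in the morula and 10.14 in the blastocyst after superovulation, and 6.95, 8.33, 18.21, 15.08, 13.75, 12.15, 12.08 and 9.34 in the natural cycle. Its neighbour Gm6803 read 5.60, 6.56, 17.73, 15.91, 13.26, 11.64, 10.76 and 9.25 after superovulation, and 6.05, 7.63, 17.79, 14.42, 13.25, 11.46, 11.56 and 8.63 in the natural cycle. In both genes every array from the early 2-cell stage on was above all MII and 1-cell arrays, the blastocyst included. Of the 10 members with the highest mean early 2-cell signal, Gm2016, Gm2075, Gm6803 and Gm10264 were of this chromosome 12 locus. Gm12626 and Gm12620 were of the chromosome 11 locus beside Llgl1, and Gm11238 was of the chromosome 4 locus Gm11487 to Gm11756. Gm3968 was an Obox4 pseudogene, whereas Gm5890 and Gm4557 stood alone on chromosome 7.

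The members left the peak at different rates. From the early to the late 2-cell stage the median difference was -1.88 after superovulation and -3.09 in the natural cycle, with 100 rows lower in both backgrounds, 3 higher in both and 10 of mixed sign. A fall of 3 log2 or more in both backgrounds was seen in 34 rows, of which 23 were Obox4 pseudogenes of chromosome 7 and 5 were of the chromosome 5 locus. The other extreme was formed by 10 rows that stayed within 1 log2 in both, for instance Gm12626, with 16.64 and 16.62 at the early and late stage after superovulation and 17.26 and 16.59 in the natural cycle. The 3 rows that were higher at the late stage in both were A430060F13Rik, B020004C17Rik and Gm11839.

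**Figure D2:**
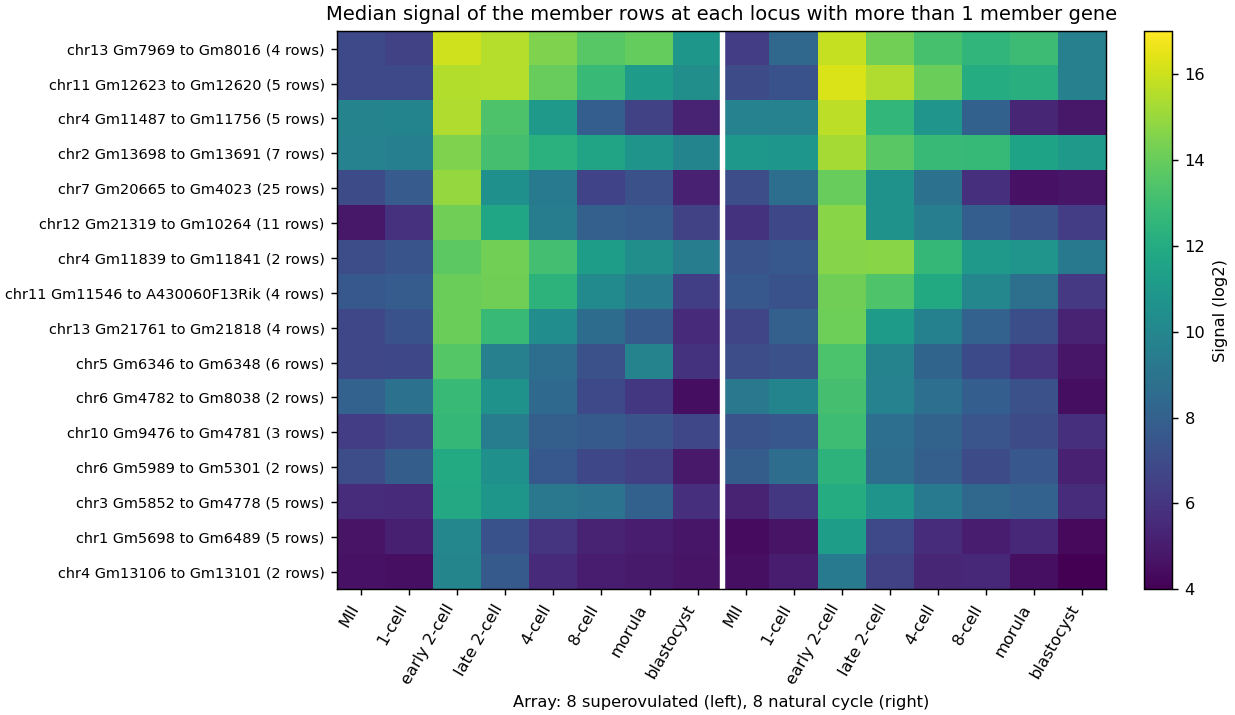
Median signal (log2, colour) of the member rows at each of the 16 loci with more than 1 member gene (rows of the plot, ordered by mean early 2-cell signal) on 8 superovulated (left) and 8 natural-cycle arrays (right). The chromosome 7 locus fell from 14.93 to 10.50 after superovulation within the 2-cell stage, while the chromosome 11 locus Gm12623 to Gm12620 stayed at 15.51 and 15.54, and the chromosome 5 locus was at 9.79 in the superovulated and 5.99 in the natural morula.

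Late 2-cell minus MII was used to ask whether the transcripts were above their oocyte level at the late 2-cell stage. It uses arrays that the choice of members did not. The peak had not passed for every row, as 10 were still within 1 log2 of their early 2-cell signal in both backgrounds. All 113 rows were higher at the late 2-cell stage (limma, additive in stage and stimulation, Benjamini-Hochberg adjusted over 30638 rows), where 19.2% of all rows with 1 symbol were called higher and 16.9% lower. The median difference was 3.49, and -0.02 over all rows. The compared arrays differ from those of the rule, and a fit on the 10 arrays of stages that the rule left aside called 112 rows higher. Yet the rows were chosen for an early 2-cell signal far above that of the 1-cell stage, the neighbours of the stages compared. They are not random rows here. Cyclic loess scaling called 105, plain analysis of variance 103, and the fits without a single array between 100 and 113. Cumulus cell markers, 6 and 5 of 8 of which were above the silent level in superovulated and natural MII oocytes and 4 and 2 at the late 2-cell stage, had a summed signal (as log2) of 12.49 and 9.55 in MII and 11.14 and 10.95 at late 2-cell. The late sum was mostly Amhr2, which read 5.23 and 5.06 in MII and 10.99 and 10.83 at late 2-cell, and the sum of the other 7 went from 12.48 and 9.49 to 7.82 and 7.29. Ptx3 and Foxl2 were not above the silent level on any array. Their part in the difference was not tested.

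The largest differences were those of the chromosome 12 locus and of the chromosome 11 locus Gm12623 to Gm12620. Gm6803 was 9.34 ± 0.50 higher (log2 ± SE, adjusted p = 1.48e-07, limma), Gm2075 9.17 ± 0.50, the brighter row of Gm2016 9.13 ± 0.50, Gm12626 8.76 ± 0.33 and Gm12612 8.75 ± 0.43. All 5 were higher in both backgrounds. Gm12612 read 6.79 and 6.72 in MII oocytes and 15.54 and 15.47 at the late 2-cell stage (superovulated and natural), so that the groups lay far apart. At the locus level the median difference was 8.68 for the 5 rows of this chromosome 11 locus and 6.44 for the 11 rows of the chromosome 12 locus. It was 8.27 for Gm7969 and Gm8016 on chromosome 13, next to AA414992.

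The smallest differences were between 1.05 and 1.53. Gm5698 was 1.05 ± 0.28 higher (adjusted p = 0.0122, limma), Gm5699 1.08 ± 0.31, Gm8038 1.42 ± 0.42, the Obox4 pseudogene Gm3965 1.42 ± 0.23 and 4930579G24Rik 1.53 ± 0.38. Gm5698 read 6.30 and 5.73 in MII, 11.50 and 11.29 at early 2-cell and 7.25 and 6.87 at late 2-cell, so that most of its rise had gone by the late stage. The calls of Gm5698 and Gm5699 were lost without the superovulated late 2-cell array (adjusted p = 0.0812 and 0.139) or without the natural MII array (0.133 and 0.202), and that of 4930579G24Rik without the former (0.0999). Gm8038 lost its call without the superovulated late 2-cell (0.246) or the superovulated MII array (0.171). Gm3968, at 3.64 ± 0.95, lost it without the superovulated MII (0.0816) or the natural late 2-cell array (0.0822). Scaling and variance model mattered too. Under cyclic loess Gm5698 was at 0.64 (adjusted p = 0.11) and Gm8038 at 0.78 (adjusted p = 0.151), with arrays centred on brighter rows Gm5698 and Gm5699 were not called, and by plain analysis of variance Gm5699, Gm8038 and Gm3968 were not.

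The chromosome 4 locus Gm11487 to Gm11756 had signal in the oocyte already and a peak at the early 2-cell stage. Gm11238 read 10.96 in MII, 10.96 at 1-cell, 16.44 at early 2-cell, 14.12 at late 2-cell, 11.47 at 4-cell, 8.24 at 8-cell, 6.52 in the morula and 5.40 in the blastocyst after superovulation, and 10.74, 10.71, 16.70, 13.45, 11.56, 8.51, 5.41 and 4.83 in the natural cycle. From the 8-cell stage on every array was below the oocyte arrays. The medians of the 5 rows were 9.80 and 9.76 in MII, 15.47 and 15.68 at early 2-cell, and 5.23 and 4.84 in blastocysts, close to the silent level. The oocyte signal of the chromosome 2 locus was of like size (9.76 and 10.94), but its blastocyst medians were 9.87 and 11.05.

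A lower signal at the 4-cell than at the late 2-cell stage reached the threshold in a minority. Of the 113 rows, 27 were lower at the 4-cell stage and none was higher (limma), where 1.05% of all rows were called lower and 1.01% higher. Both stages lie between the peak and the later stage by which the rule required a fall. The choice of rows thus favours a decrease here, and they are not random rows. The median difference was -1.42, and 82 rows had an unadjusted p under 0.05. The count rested on single arrays. Without the natural 4-cell array no row was called (limma), without the superovulated 4-cell array 3, without the superovulated late 2-cell array 5 and without the natural late 2-cell array 46. Plain analysis of variance called 4 and a fit that took in every row of the array called 13, while rows above the median level gave 55. A fit on the 10 arrays of stages that the rule left aside called 12.

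The strongest decreases were those of Gm4557 (-4.34 ± 0.58, adjusted p = 0.0108), Gm5890 (-4.11 ± 0.61, adjusted p = 0.0133), Gm4850 (-3.64 ± 0.52), Gm5117 (-2.63 ± 0.47) and Gm11238 (-2.27 ± 0.35; all limma). Gm4557 read 15.31 and 13.53 at the late 2-cell stage and 10.50 and 9.65 at the 4-cell stage. It was then at 8.13 and 8.42 at the 8-cell stage, 9.89 and 9.70 in morulae and 7.55 and 5.43 in blastocysts, so that the morula stood above the 8-cell stage in both backgrounds. Gm5890 had the same shape, with 9.22 and 8.81 at 8-cell and 11.02 and 10.22 in morulae. Without the natural 4-cell array none of the 5 passed the threshold (adjusted p between 0.119 and 0.192). Without the superovulated 4-cell array Gm4850, Gm5117 and Gm11238 did not pass (0.0611, 0.0588 and 0.0905), and without the superovulated late 2-cell array Gm5117 and Gm11238 did not (0.0807 and 0.0538). All 5 rows of the chromosome 4 locus were called lower, with a median of -2.12.

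Rows that changed least at this step had differing fates. Gm24745 (0.11 ± 0.48), Gm1527 (-0.29 ± 0.48), Gm12569 (-0.42 ± 0.26), B020004C17Rik (-0.44 ± 0.50) and 4930579G24Rik (-0.58 ± 0.38) did not pass the test. B020004C17Rik, whose promoter resembles that of Gm11487, read 6.71 in MII, 6.47 at 1-cell, 12.25 at early 2-cell, 13.03 at late 2-cell, 13.09 at 4-cell, 9.55 at 8-cell, 7.46 in the morula and 5.39 in the blastocyst after superovulation, and 6.24, 6.41, 12.42, 13.15, 12.20, 7.67, 6.03 and 5.81 in the natural cycle. Gm11487 read 8.58 and 8.86 in MII, 14.87 and 14.79 at early 2-cell, 11.77 and 10.86 at late 2-cell and 9.51 and 9.03 at 4-cell. B020004C17Rik thus stayed near its highest signal through the 4-cell stage in both backgrounds, whereas Gm11487 was lower at each stage after the early 2-cell stage than at the one before.

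The decrease went on between the 4-cell stage and the morula. There 79 rows were lower and none higher (limma), against 9.28% of all rows lower and 8.68% higher, with a median difference of -1.70 beside 0.07 over all rows. Yet the rows were chosen for a fall from their peak to the stage between those compared. The choice itself thus favours a decrease here, and the share of all rows is no independent yardstick. B020004C17Rik was 5.90 ± 0.50 lower (adjusted p = 2.01e-05), Gm11238 5.55 ± 0.35 lower (adjusted p = 4.04e-06) and Gm12789 of chromosome 4 5.25 lower. All 25 Obox4 pseudogenes, all 7 rows of the chromosome 2 locus and 10 of 11 rows of the chromosome 12 locus were called lower. None of the 6 rows of the chromosome 5 locus and none of the 4 rows of Gm7969 and Gm8016 passed. Without the superovulated 4-cell array 52 rows were called, and without the superovulated morula array, which stands apart as described below, 71.

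Between morula and blastocyst 38 rows were lower and 1 higher, against 5.53% of all rows lower and 6.54% higher (limma), with a median difference of -1.11 beside -0.06. The rule used neither stage, yet its rows were chosen for a fall after their peak. They are not random rows here either, and the share of all rows is no independent yardstick. The 4 rows of Gm7969 and Gm8016 took part here (median -3.19), as did the 5 rows of the chromosome 3 locus beside Tdpoz3 and Tdpoz4 (median -2.07), genes of the speckle-type POZ family. The row that was higher was 4930579G24Rik, with 6.19 and 6.67 in morulae and 8.03 and 7.63 in blastocysts (1.40 ± 0.38, adjusted p = 0.0339, limma). No member was called higher in the fit that took in every row of the array, by plain analysis of variance, with array weights, or without either MII array, the superovulated morula or the natural blastocyst. The highest blastocyst signals among the members were those of Gm12626 (11.31 and 10.58) and of Gm13695, Gm13698, Gm13693 and Gm13696 on chromosome 2 (9.99 and 11.11 for Gm13695). Without the natural blastocyst array 16 rows were called lower, without the superovulated morula 21 and with array weights 23.

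**Figure D3:**
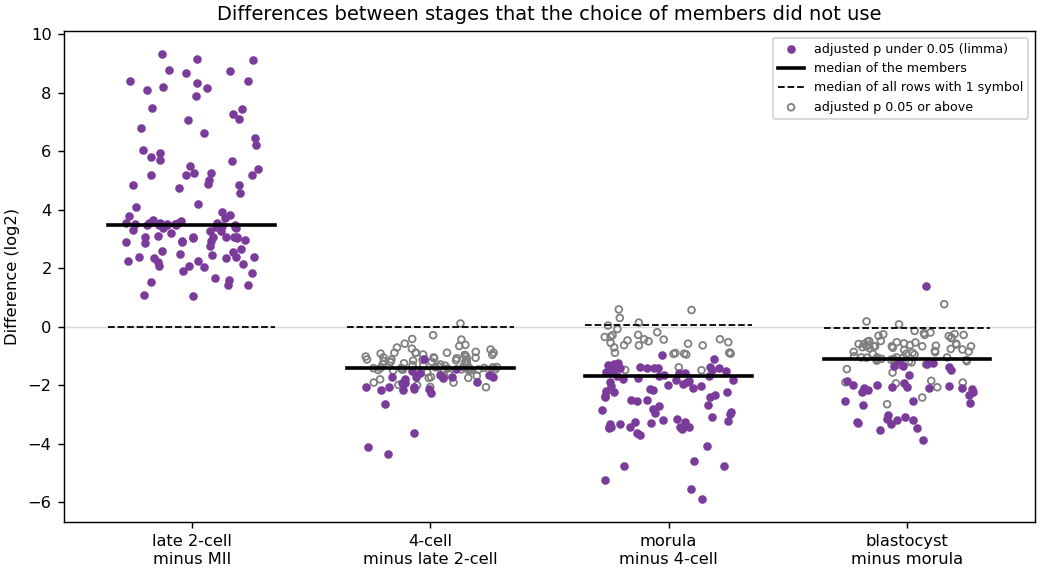
Difference (log2) of each of the 113 member rows in 4 contrasts between stages that the choice of members did not use; filled points have an adjusted p under 0.05 (limma) and open points do not. Solid bars give the members' median (3.49, -1.42, -1.70 and -1.11 from left to right) and dashed bars the median of all rows with 1 symbol.

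The series compares ovarian stimulation with the natural cycle. A difference between them that is constant over the stages was tested on the 10 arrays of the 5 stages that the rule left aside, while a difference at a single stage cannot be tested with 1 array. None of the 113 rows was called (limma), and neither was any of the 30638 rows (0%). At an unadjusted p under 0.05 there were 28 members and 2716 rows of all, and plain analysis of variance also called none after adjustment. The median difference was 0.35 over the members and 0.05 over all rows. A p that misses the threshold does not show that the backgrounds were alike.

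All 7 rows of the chromosome 2 locus, which hold 3 distinct courses, were lower after superovulation, with differences between -0.90 and -0.80 in the fit that did not pass the test. Gm13691 read 8.62 against 9.90 in MII, 12.38 against 12.96 at late 2-cell, 11.11 against 11.92 at 4-cell, 9.59 against 10.45 in the morula and 8.68 against 9.64 in the blastocyst (-0.90 ± 0.18, adjusted p = 0.536, limma). At the 3 stages used by the rule it was lower too, with 13.77 against 15.12 at early 2-cell.

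On the other side the most positive differences were those of Gm5890 (1.37 ± 0.36), the Obox4 pseudogene Gm20710 (1.20 ± 0.50), the 2 near-identical rows of Gm7969 (1.11 ± 0.18) and Gm6509 (1.05 ± 0.56), with an adjusted p between 0.536 and 0.611 (limma). Gm7969 read 6.87 against 6.18 in MII, 15.57 against 14.27 at late 2-cell, 14.50 against 13.24 at 4-cell, 13.95 against 12.93 in the morula and 10.90 against 9.59 in the blastocyst. It was higher after superovulation at each of these stages but lower at the 1-cell stage (6.48 against 8.34).

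At the late 2-cell stage, 74 of 113 members were higher after superovulation, with a median difference of 0.47 beside 0.04 over all rows. Of the 6 oocyte markers, 5 read higher after superovulation on these arrays, from Oosp1 (17.46 against 17.43) to Zar1 (12.31 against 10.82), and Zp3 read lower (12.87 against 13.21). Their summed signal (as log2) was 18.12 against 18.00, and their part in the difference was not tested. At the 1-cell stage, whose arrays the rule used, 87 members were lower after superovulation (median -0.51 beside 0.0 over all rows). The share of all rows that were higher or lower was counted at neither stage. Many members are copies within shared loci, so these counts are not of independent rows.

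The superovulated morula array stood apart. Its median over all rows of the table was 4.69, where the other arrays lay between 4.39 and 4.57. Its silent level was 5.22, where 3 other arrays were at 5.20. Of the 113 members 69 were higher and 44 lower in this array than in the natural morula (median 0.48 beside 0.11 over all rows with 1 symbol). The chromosome 5 locus was 3.61 higher (median of 6 rows) and the 25 Obox4 pseudogenes 2.90 higher. Other loci were lower, for instance the chromosome 11 locus Gm12623 to Gm12620 (median -0.93), the chromosome 2 locus (-0.82) and the chromosome 12 locus Gm21319 to Gm10264 (-0.59). The summed oocyte markers (as log2) read 12.49 against 12.90. Gm3968 read 10.03 against 5.47 and Gm6509 9.82 against 5.77. The trophectoderm keratins went the other way, with 8.19 against 12.06 for Krt8 and 8.18 against 13.27 for Krt18, and the 5 embryo lineage markers (Nanog, Cdx2, Krt8, Krt18 and Tfap2c) had a summed signal (as log2) of 13.05 against 15.61. Of 28 measured genes in a comparison list for the 2-cell burst, 23 read higher and 4 lower in the superovulated morula (median difference 0.50). They ran from Tdpoz4 at -0.98 to Zscan4f at 2.43. The part of these in the difference was not tested, and with 1 array each, background and array cannot be told apart.

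**Figure D4:**
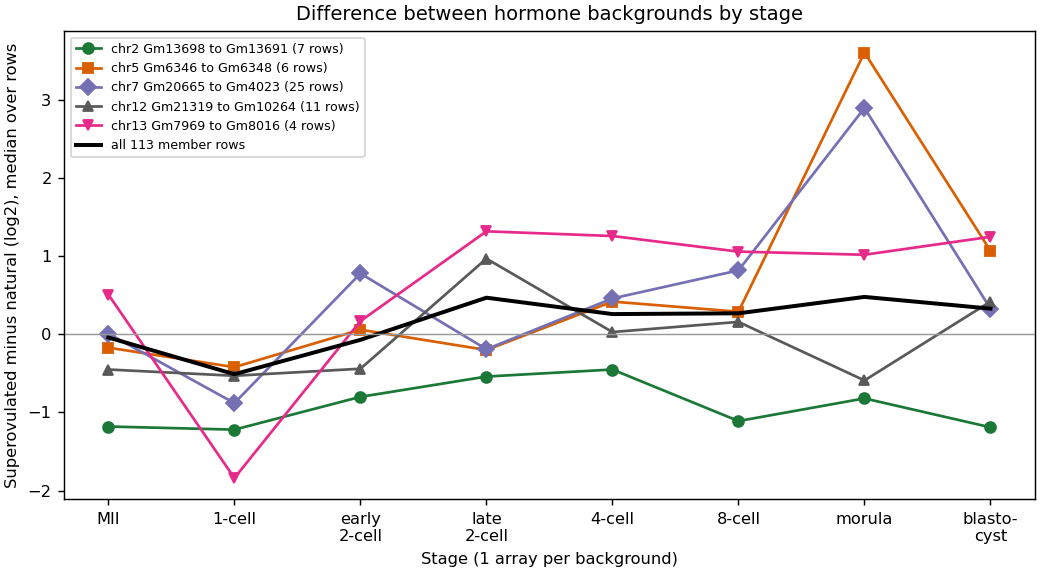
Superovulated minus natural signal (log2) at each stage, as the median over the rows of 5 loci and over all 113 member rows (black), with 1 array per stage and background. The chromosome 2 locus lay below 0 at every stage, and the chromosome 5 and chromosome 7 loci reached 3.61 and 2.90 in the morula.

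Named genes listed as genes of the 2-cell burst were set beside the members. Of 38 such genes in a list drawn up for comparison, 28 were measured in rows of 1 symbol and 19 of these met the values of the rule. Not all rose here: after superovulation Arg2 read 15.16 at 1-cell and 11.19 at early 2-cell, and Duxf3 was above the silent level on 1 array. Late 2-cell minus MII was called higher for 21 and lower for 3 (Arg2, Tubal3 and Klf17), beside 19.2% and 16.9% of all rows (limma). For 4-cell minus late 2-cell 11 were lower, beside 1.05%, and all 11 were among the genes that met the values of the rule. For morula minus 4-cell 20 were lower and 1 higher (Tdpoz2), beside 9.28% and 8.68%. Blastocyst minus morula was called lower for 19 of the 28, beside 5.53%. Genes that met the values rose and fell as the rule asks of members, which favours a decrease between the late 2-cell stage and the morula. They are not random rows in any of these contrasts, and the share of all rows is no independent yardstick for them. Zscan4c and Zscan4d, telomere-associated zinc finger genes, were high in MII oocytes (9.26 and 8.33 after superovulation) and did not pass for late 2-cell minus MII (1.08 ± 0.48 and 1.21 ± 0.47, adjusted p = 0.105 and 0.0683). Rows that met the values of the rule were more often predicted than rows in general, with 59.5% of 190 rows with 1 symbol beside 31.9% of all such rows. The former share includes 30 rows of genes that RefSeq now names, 25 of them Obox4 pseudogenes of a single locus. How many of all predicted rows have since been named was not counted. A further 48 rows with several symbols and 88 with none also met the values and were not members.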

How the data were processed

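RNA of 20 oocyte or embryo equivalents per array was amplified and hybridized to the Affymetrix mouse transcriptome array. The deposited value table, per the labels made with Affymetrix Expression Console, holds log2 signals already normalized by the authors; the methods name signal space transformation robust multiarray averaging for arrays of single blastomeres and blastocysts and do not state it expressly for this series. The table had 72688 rows: 30638 with 1 gene symbol, 2176 with several and 39874 with none. No further scaling was applied. Symbols came from the platform annotation and gene types, older names, order and promoters from RefSeq (GRCm38.p6); 83 member rows matched by symbol and 30 by synonym. Because the build of the array annotation is not given, gene positions served only for order.

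Members, loci and comparison lists were chosen with earlier results of these data known. Differences were fitted with limma 3.58.1 (R 4.3.3; lmFit, eBayes with trend) on all rows with 1 symbol, stage plus stimulation, Benjamini-Hochberg threshold 0.05. The 16-array fit had 7 residual and 4.52 prior degrees of freedom and a median SE of 0.227; the 10-array fit had 4, 4.53 and 0.143. On simulated data for the 16-array stage contrast with 30638 rows, 98.5% of rows changed by 4 log2, 76.1% by 2 and 38.8% by 1 were recovered. The number of arrays limits the precision. Named members were those with the highest early 2-cell and blastocyst signals, the extremes of late 2-cell minus MII, of 4-cell minus late 2-cell and of the stimulation difference, members that RefSeq places in a known family, those nearest the thresholds, and the comparison list; other rows named (such as Gm11487, Gm12789 and the neighbours of loci) were chosen after their values were seen. Promoters were aligned pairwise with Biopython 1.88, leaving out end gaps from the identity. Alternatives were another scaling, other row filters, variance models, array weights, other arrays in the fit, and each array left out in turn.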

Additional observations from a re-analysis of the deposited data

Results flagged for a closer look

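In 2 loci the step from the 8-cell stage to the morula went in opposite directions in the backgrounds, in all of their rows. The 6 rows of the chromosome 5 locus Gm6346 to Gm6348 had a median of 2.54 after superovulation and -0.81 in the natural cycle. The 25 Obox4 pseudogenes of the chromosome 7 locus Gm20665 to Gm4023 had 0.56 and -1.47. The difference was not tested, since each stage and background had 1 array. A step counted here when both medians were at least 0.5 log2 in size.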

How the results depend on the processing

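Late 2-cell minus MII (113 members higher) and morula minus 4-cell (79 lower) stayed within 1.5 times their count under each alternative scaling, filter and variance model. Leaving out the superovulated 4-cell array took the latter to 52. With single arrays left out the counts ran from 100 to 113 for late 2-cell minus MII, 0 to 46 for 4-cell minus late 2-cell, 52 to 85 for morula minus 4-cell, 16 to 50 for blastocyst minus morula and 0 to 0 for superovulated minus natural. For 4-cell minus late 2-cell the 27 became 47 with arrays centred on brighter rows, 13 over all rows, 55 over rows above the median level, 4 by plain analysis of variance, 41 with array weights and 12 on 10 arrays. For blastocyst minus morula the 38 became 24 by plain analysis of variance and 23 with array weights. Superovulated minus natural went from 0 to 7 members lower with all 16 arrays, which include those that chose the members, where 63 of all rows were called higher and 41 lower. The rule found 178 rows with thresholds 1 log2 lower and 74 with thresholds 1 log2 higher, and 111 after cyclic loess, of which 108 were shared. For 4-cell minus late 2-cell, Gm24745 (0.11) turned to -0.03 without the superovulated late 2-cell array and -0.05 without the natural 4-cell array, and Gm1527 (-0.29) to 0.29 without the former; with single arrays left out they ran from -0.05 to 0.27 and from -0.88 to 0.29, and none was called. Among 955 alternative values of 41 named differences, 914 kept direction and side of the threshold. The causes were not tested beyond what the fewer arrays or rows imply. With cyclic loess the median of all rows was -0.09 for late 2-cell minus MII and with arrays centred on brighter rows -0.25, and the higher calls over all rows fell from 5887 to 4417 and 4608 while the lower rose from 5186 to 7299 and 6476. No paired analysis was possible because each group has 1 array, whose number pairs no samples. The additive fit itself compares backgrounds within stages and stages within backgrounds.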
